A study of Mus musculus with 8 samples.

Results

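The genes that let a neuron fill, dock, fuse and recycle synaptic vesicles were followed in olfactory epithelium, where the cell bodies of olfactory sensory neurons lie. A synaptic vesicle is loaded with transmitter by a transporter, held near the active zone by scaffold proteins, primed as its SNARE proteins zip with those of the plasma membrane, and released when a calcium sensor of the synaptotagmin family binds calcium. The membrane is then taken back by endocytosis. Olfactory sensory neurons release glutamate in this way from axon terminals in the glomeruli of the olfactory bulb, so their vesicle proteins act far from the epithelium in which their RNA was measured here.

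The set held 38 genes, listed by symbol for these functions, with earlier results of these data known, of 25913 genes in the deposited count table. All 38 were found, and 36 passed the filter on low counts. Rph3a and Rimbp2 did not pass it and are given as counts. RNA came from dissected olfactory epithelium of C57BL/6J mice aged 40 weeks, with 4 libraries per group, in a study of removing Igf1r, the receptor of insulin-like growth factor 1, from olfactory sensory neurons. The groups are called by their library titles, IGF1R_flfl (libraries 1, 2, 13 and 3) and OMP_IGF1R (libraries 11, 12, 17 and 18). The genotype field names them the other way round: it gives OMPIGF1 (KO) for the libraries titled IGF1R_flfl and a control for those titled OMP_IGF1R. Each change below is therefore of OMP_IGF1R-titled over IGF1R_flfl-titled libraries, and its direction by genotype depends on which label is right. The name of the allele points to Omp, a gene of mature olfactory sensory neurons, but the recombinase line is not given in the sources used here. Receptor in other cells of the epithelium would not be removed by such an allele. Since no label ties a library to an animal of its own, p-values here rest on the spread among libraries, part of which may be technical.

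Total counts ran from 18802471 to 27793375 per library. Igf1r stood at 66.5 ± 7.65 CPM (read counts scaled to library size) in the IGF1R_flfl libraries and 42.1 ± 6.32 CPM in the OMP_IGF1R libraries (SD, n = 4 each), and Omp at 5386 ± 989 and 1969 ± 224 CPM, so both were lower on the side that the genotype field calls control. Of the 20 marker genes of mature olfactory sensory neurons, 15 fell and 0 rose in OMP_IGF1R, with a median log2 fold change of -0.63, and their summed level was 19349 to 26758 CPM in IGF1R_flfl and 12326 to 13869 CPM in OMP_IGF1R. Of 18 markers of immature neurons, 12 rose and 1 fell (median 0.51, sum 1828 to 2032 and 2491 to 2705 CPM). Of 7 sustentacular markers 0 changed by edgeR, DESeq2 or limma voom, with 1 at an unadjusted p under 0.05 (median -0.06, sum 18611 to 23476 and 19814 to 20903 CPM). Microvillar markers rose in 2 of 6 (sum 24.3 to 32.2 and 38.1 to 51.8 CPM). Vomeronasal markers changed in 0 of 4 by the same tools (sum 389 to 414 and 413 to 423 CPM). At an unadjusted p under 0.05 there were 0 of them by edgeR and 1 each by DESeq2 and limma voom. In bulk RNA, fewer cells of a type and less RNA per cell cannot be told apart, and the part of these shifts in the results below was not tested.

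The library IGF1R_flfl 2 stood apart. All 10 oligodendrocyte markers were highest there, with a sum of 2307 CPM against 260 to 379 CPM in the other 7 libraries, led by Mbp, a myelin protein, at 1003 CPM. Of 18 markers of olfactory bulb neurons, 10 were highest there and 8 were more than 2-fold above the mean of the other IGF1R_flfl libraries, among them Gad1 (29.1 CPM) and Slc32a1 (22.5 CPM), genes of inhibitory neurons. The summed bulb level, 1222 CPM, lay within the range of the other libraries (824 to 1224 CPM), since its most abundant gene, Pcp4l1, was as high elsewhere. The bulb projection neuron gene Tbx21 reached at most 0.641 CPM in any library, Tbr1 1.43, and the forebrain genes Neurod2 and Neurod6 0.533 and 0.724. Of 15 bulb markers tested 2 fell, one of them Pcp4l1 (log2 -0.50), and of 8 oligodendrocyte markers 0 changed by edgeR, DESeq2 or limma voom. At an unadjusted p under 0.05 there were 2 oligodendrocyte markers by edgeR and 0 by DESeq2 or limma voom. The sum of skeletal muscle markers was 533 CPM for OMP_IGF1R 17 and between 4.57 and 8.16 CPM elsewhere. Of 4 tested muscle markers 0 were called by these tools. At an unadjusted p under 0.05 there were 3 by edgeR and 0 by DESeq2 or limma voom. Tissue with synapses, such as bulb, carries the same release genes, and which tissue gave the excess in IGF1R_flfl 2 was not tested. Counts, medians and fold changes of release genes reported below that moved by over 1.5 times without IGF1R_flfl 2 are therefore given with and without it. Fold changes within 0.1 of 0 in both fits are excepted. The part of the marker genes in those results was not tested.

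Release genes were lower on balance in the OMP_IGF1R libraries. Of the 36 tested, 14 fell and 0 rose at an adjusted p under 0.05 by edgeR's quasi-likelihood test with Benjamini-Hochberg adjustment over all genes, which is 38.9% of them, against 5.37% of all 17381 tested genes called lower and 2.83% called higher. Their median log2 fold change was -0.40, against -0.01 over all tested genes, and 31 had a negative value. The share with a negative value over all tested genes was 52.5%. At an unadjusted p under 0.05 there were 22 members, each with a negative fold change, beside 23.5% of all tested genes at that threshold in either direction and 14.1% lower. DESeq2 called 16 lower and 0 higher, where it called 7.69% of all genes lower and 4.63% higher. In 18 of the 36, all 4 OMP_IGF1R libraries lay below all 4 IGF1R_flfl libraries, against 10.3% of all tested genes, and the 14 called genes were among them. Without IGF1R_flfl 2, 11 fell and 1 rose (5.52% and 2.94% of all genes tested in that fit), 10 of the 14 kept their call, and the median was -0.20. Syt11, Cplx2, Syp and Snap91 lost it, with fold changes of -0.31, -0.28, -0.39 and -0.32 in that fit, while Napb fell and Rab3c rose. Without both IGF1R_flfl 2 and OMP_IGF1R 17, 9 fell and 1 rose, where 4.84% of all genes tested in that fit were lower and 2.62% higher. The authors' deposited table gave adjusted p-values for 32 of the genes, and 16 were lower at the same threshold, the 14 above plus Vamp2 and Napb.

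In the edgeR fit on all libraries, calls were most frequent among vesicle proteins and least among active zone genes. By role, the genes that fell were 1 of 2 glutamate transporters, 2 of 4 synaptotagmins, 2 of 9 SNARE genes and their handlers, 6 of 9 vesicle proteins, 1 of 7 active zone genes and 2 of 5 recycling genes. The medians were -0.37 for synaptotagmins, -0.39 for SNARE genes, -0.46 for vesicle proteins, -0.38 for recycling genes and -0.00 for active zone genes. Without IGF1R_flfl 2 the counts lower were 1, 1, 2, 5, 1 and 1, and 1 vesicle protein gene was higher. The medians without it, in the order just given for them, were -0.34, -0.18, -0.41, -0.19 and 0.02. The place of SNARE genes depended on the tool: DESeq2 called 4 of 9 lower, beside 6 of 9 vesicle proteins, 2 of 5 recycling genes and 1 of 7 active zone genes. Differences between roles were not tested. The plot of fold changes by role shows both fits.

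**Figure D1:**
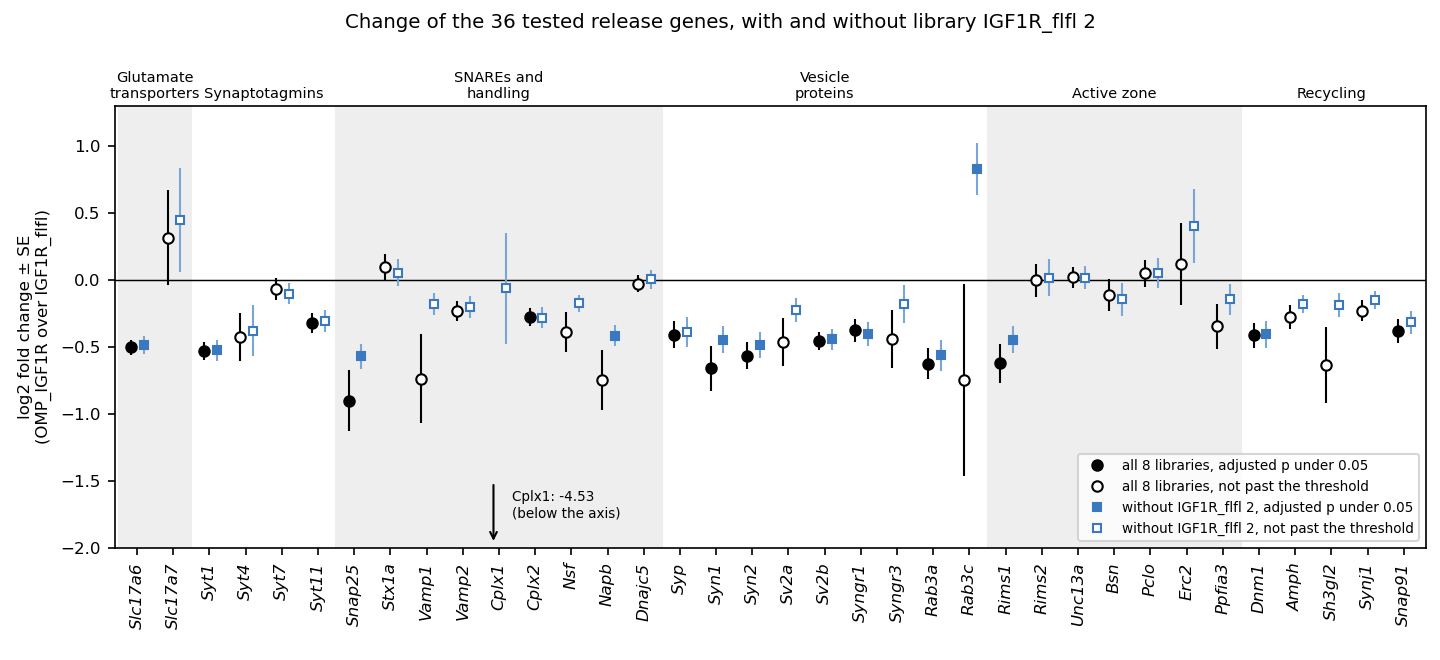
Log2 fold change (OMP_IGF1R over IGF1R_flfl, vertical axis) of the 36 tested release genes grouped by role, with bars of 1 SE. Circles are the fit on all 8 libraries and squares the fit without IGF1R_flfl 2, filled where the edgeR adjusted p was under 0.05. Most vesicle genes lie near -0.4 to -0.6 in both fits, most active zone genes near 0, and Cplx1 (-4.53, below the axis) and Rab3c change with the library left out.

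The RNA of the main vesicular glutamate transporter fell, and that of its paralog was scarce. Slc17a6 (ENSMUSG00000030500, GRCm38 chromosome 7, 51621830 to 51671125) encodes VGLUT2, the vesicular glutamate transporter of olfactory sensory neurons. It stood at 188, 200, 191 and 211 CPM in libraries 1, 2, 13 and 3 of IGF1R_flfl, against 137, 135, 149 and 136 CPM in libraries 11, 12, 17 and 18 of OMP_IGF1R, the order used throughout. The groups did not overlap, and IGF1R_flfl 2 lay within the range of its group. The log2 fold change was -0.50 (SE 0.0586, edgeR adjusted p = 0.00335), 29.5% lower, and the call held in all 8 fits that left out 1 library. Slc17a7 encodes VGLUT1, the transporter of many cortical and bulb projection neurons. Its level was 0.688, 1.26, 1.32 and 0.833 CPM in IGF1R_flfl and 1.68, 1.81, 0.708 and 0.883 CPM in OMP_IGF1R, with overlap (log2 0.31, SE 0.353, edgeR adjusted p = 0.64). Per kilobase of exon, Slc17a7 made up 0.518 ± 0.162% of the pair in IGF1R_flfl and 0.915 ± 0.417% in OMP_IGF1R (SD, n = 4 each), and it was not raised in IGF1R_flfl 2 (0.626%).

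The stretches just upstream of the gene starts are printed for both transporters and for the vesicle protein gene Syngr1, which fell, and the priming gene Unc13a, whose log2 fold change was 0.02 and did not pass the test. Sequences are from RefSeq on GRCm38.p6, the 250 bases before the start, 5′ to 3′ on the gene's strand, with capitals marking a GC box (GGGGCGGGG or its reverse complement), the letters bound by Sp-type zinc finger factors. They come from chr7:51621580-51621829 (plus strand), chr7:45163671-45163920 (plus), chr15:80091084-80091333 (plus) and chr8:71671758-71672007 (minus) in the order shown.
Slc17a6: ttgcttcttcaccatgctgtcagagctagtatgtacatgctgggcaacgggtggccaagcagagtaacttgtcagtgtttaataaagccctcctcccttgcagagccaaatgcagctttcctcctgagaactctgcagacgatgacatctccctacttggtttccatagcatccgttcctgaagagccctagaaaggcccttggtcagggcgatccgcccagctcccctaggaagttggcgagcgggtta
Slc17a7: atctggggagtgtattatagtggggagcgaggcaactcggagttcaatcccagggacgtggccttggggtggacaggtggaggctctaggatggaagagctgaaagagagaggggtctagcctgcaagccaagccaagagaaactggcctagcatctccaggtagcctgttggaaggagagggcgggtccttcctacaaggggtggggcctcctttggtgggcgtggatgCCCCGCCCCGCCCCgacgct
Syngr1: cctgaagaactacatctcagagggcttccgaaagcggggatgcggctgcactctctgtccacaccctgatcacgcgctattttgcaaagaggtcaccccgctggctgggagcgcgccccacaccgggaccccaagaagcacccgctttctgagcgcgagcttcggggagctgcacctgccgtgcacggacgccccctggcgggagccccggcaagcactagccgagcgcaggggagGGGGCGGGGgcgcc
Unc13a: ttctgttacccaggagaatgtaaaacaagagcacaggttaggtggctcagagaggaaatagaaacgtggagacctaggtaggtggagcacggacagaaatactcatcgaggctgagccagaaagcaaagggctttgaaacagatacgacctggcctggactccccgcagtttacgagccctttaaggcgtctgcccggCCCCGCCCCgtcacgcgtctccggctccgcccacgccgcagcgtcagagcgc
The Slc17a6 stretch held no match, that of Slc17a7 held 2 overlapping matches of which the first begins at -20 relative to the start, and those of Syngr1 and Unc13a held 1 each, at -14 and -52. GC content was 53.2%, 61.2%, 68.4% and 58% in the same order. The reference table held 31 of the 38 genes, 7 of them with several starts, and 7 of the 31 had a GC box (22.6%, against 11.8% of 27025 genes): Rab3a, Rims1, Slc17a7, Sv2a, Syngr1, Syp and Unc13a. The letters were thus found upstream of genes that fell and of genes that did not. The cyclic AMP response element TGACGTCA was found for Syn1 and Sh3gl2 (6.45%, against 1.77%), and TAATTA, a core of homeodomain sites, for Slc17a6 at a second listed start (3.23%, against 5.65%). An Olf/Ebf-type motif and an RE1-type motif had 0 matches in the 31 (0.914% and 0.0370% of all genes), which says only that those letters are not in these windows. Both strands were searched. These are matches of letters, not measured binding sites.

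Among the synaptotagmins of the set, most of which are calcium sensors, Syt1 and Syt11 fell. Syt1 (ENSMUSG00000035864, chromosome 10, 108497650 to 109010982), synaptotagmin 1, triggers fast synchronous release. It stood at 224, 239, 234 and 269 CPM in the IGF1R_flfl libraries, against 166, 159, 178 and 164 CPM in the OMP_IGF1R libraries, with no overlap (log2 -0.53, SE 0.0692, edgeR adjusted p = 0.00458), and it kept its call in all 8 fits without 1 library. Syt11 (ENSMUSG00000068923, chromosome 3, 88744700 to 88775164), a synaptotagmin that does not bind calcium and takes part in membrane trafficking, stood at 440, 441, 388 and 479 CPM, against 346, 326, 370 and 358 CPM in the other group. The groups did not overlap, but the change was smaller (log2 -0.32, SE 0.0758, edgeR adjusted p = 0.0327) and held in 2 of the 8 fits. Syt7, a slow high-affinity sensor, was at 239 ± 27.5 and 228 ± 4.27 CPM (log2 -0.07, or -0.10 without IGF1R_flfl 2, edgeR adjusted p = 0.66), and Syt4, a sensor-like synaptotagmin of dense core vesicles, at 72.7 ± 12.4 and 54 ± 13.7 CPM (log2 -0.43, edgeR adjusted p = 0.18), both with overlap.

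Rph3a, rabphilin, a Rab3 effector on vesicles, was found almost only in IGF1R_flfl 2. It had 0, 1513, 4 and 7 reads in IGF1R_flfl 1, 2, 13 and 3 and 12, 3, 2 and 3 reads in OMP_IGF1R 11, 12, 17 and 18. A count of 0 in IGF1R_flfl 1 allows up to 3 reads, or 0.109 CPM, by counting error alone. The 377-fold excess over the mean of the other 3 IGF1R_flfl libraries came in the library where all 10 oligodendrocyte markers were highest. Of the 18 bulb neuron markers 10 were highest there, while their sum, 1222 CPM, lay within the range of the other libraries. The source of the excess was not tested.

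Among the SNARE genes, Snap25 had the largest fall of the called genes. Snap25 (ENSMUSG00000027273, chromosome 2, 136713453 to 136782428) encodes the plasma membrane SNARE that forms the fusion complex with syntaxin and synaptobrevin. It stood at 263, 540, 246 and 302 CPM in the IGF1R_flfl libraries, against 172, 170, 205 and 177 CPM in the OMP_IGF1R libraries. The groups did not overlap, but IGF1R_flfl 2 was 2-fold above the mean of the others of its group. With it the log2 fold change was -0.90 (SE 0.227, edgeR adjusted p = 0.0411), and without it -0.57 (SE 0.0915, edgeR adjusted p = 0.00883). The Snap25 call held in 3 of the 8 fits without 1 library. Napb, the neural β-SNAP that with the ATPase Nsf takes spent SNARE complexes apart, had the same pattern: 79.6 CPM in IGF1R_flfl 2, 37.8 to 43.8 CPM in the other 3 and 27.1 to 32.7 CPM in OMP_IGF1R. It did not pass with all libraries (log2 -0.75, edgeR adjusted p = 0.0744) and fell without IGF1R_flfl 2 (-0.42, edgeR adjusted p = 0.0152).

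The complexins, small proteins that clamp and then promote SNARE-driven fusion, separated by library. Cplx2 (ENSMUSG00000025867, chromosome 13, 54371349 to 54383917) stood at 190, 194, 192 and 226 CPM in the IGF1R_flfl libraries, against 172, 158, 164 and 167 CPM in the OMP_IGF1R libraries, with no overlap and a modest fall (log2 -0.28, SE 0.0686, edgeR adjusted p = 0.0386). That call was lost in each of the 8 fits without 1 library (adjusted p up to 0.116). Cplx1 stood at 1.01, 92.6, 0.999 and 1.27 CPM in the IGF1R_flfl libraries, against 1.68, 1.39, 0.708 and 0.422 CPM in the OMP_IGF1R libraries. All libraries but IGF1R_flfl 2 lay under 2 CPM, so its fold change of -4.53 (SE 1.61, edgeR adjusted p = 0.126) was -0.06 (SE 0.416) without that library. Per kilobase, Cplx2 made up 97.8% to 99.4% of the pair in 7 libraries and 48.2% in IGF1R_flfl 2.

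The synaptobrevins, the vesicle SNAREs, did not pass the test. Vamp2, the main form for fast release, stood at 243, 268, 236 and 285 CPM in the IGF1R_flfl libraries, against 214, 207, 233 and 226 CPM in the OMP_IGF1R libraries, which did not overlap (log2 -0.23, SE 0.0738, edgeR adjusted p = 0.0911). Vamp1 stood at 53.4, 148, 49.5 and 54.2 CPM, against 50.8, 39.7, 46.2 and 46.8 CPM in the other group, with only IGF1R_flfl 2 far from the rest (log2 -0.74, edgeR adjusted p = 0.22, and -0.18 without that library). Vamp1 was 6.64% to 8.17% of the pair per kilobase in 7 libraries and 17.2% in IGF1R_flfl 2. Stx1a, the plasma membrane syntaxin, was at 51.2 ± 7.73 and 54.7 ± 3.86 CPM, Dnajc5, a chaperone of SNAP-25 on vesicles, at 159 ± 8.48 and 155 ± 10.1 CPM, and Nsf at 141 ± 37.6 and 107 ± 3.79 CPM (edgeR adjusted p = 0.62, 0.84 and 0.157). Stx1a and Dnajc5 overlapped between groups, and Nsf did not. The fold change of Nsf was -0.39 with all libraries and -0.18 without IGF1R_flfl 2.

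Vesicle proteins gave the most calls. Syp (ENSMUSG00000031144, chromosome X, 7638471 to 7653256) encodes synaptophysin, an abundant membrane protein of vesicles that binds synaptobrevin. It stood at 336, 378, 332 and 434 CPM in the IGF1R_flfl libraries, against 273, 258, 318 and 264 CPM in the OMP_IGF1R libraries, with no overlap but with OMP_IGF1R 17 close to the lowest IGF1R_flfl library (log2 -0.41, SE 0.102, edgeR adjusted p = 0.0391). Syngr1 (ENSMUSG00000022415, chromosome 15, 80091334 to 80119501), a synaptogyrin of the same family of membrane proteins, stood at 286, 261, 265 and 324 CPM, against 246, 201, 213 and 213 CPM in the other group. It fell by 0.38 on the log2 scale (SE 0.0882, edgeR adjusted p = 0.031), and its paralog Syngr3, at 9.52, 19.8, 10.3 and 13.8 CPM, against 9.64, 9.46, 11.1 and 9.14 CPM in the other group, did not pass the test and overlapped (log2 -0.44, or -0.18 without IGF1R_flfl 2). Over the 8 fits without 1 library, the call of Syp held in 2 and that of Syngr1 in 3. Syngr3 made up 9.86 ± 3.51% and 9.5 ± 1.03% of its pair with Syngr1 per kilobase. Without IGF1R_flfl 2, where it was 15%, the IGF1R_flfl share was 8.15 ± 0.919% (n = 3), below that of OMP_IGF1R by more than either SD though the libraries overlapped, so the direction turned with that library.

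Of the synapsins, which tether vesicles into the reserve pool, both in the set, Syn1 and Syn2, fell. Syn3, outside the set, was at 92.4 ± 14.4 CPM in IGF1R_flfl and 116 ± 14 CPM in OMP_IGF1R. Its log2 fold change was positive and did not pass the test (0.33, edgeR adjusted p = 0.142), with overlap. Syn1 (ENSMUSG00000037217, chromosome X, 20860511 to 20921004) stood at 34.5, 62.1, 35.6 and 46.5 CPM in the IGF1R_flfl libraries, against 26.9, 27.8, 29.1 and 29.2 CPM in the OMP_IGF1R libraries. Syn2 (ENSMUSG00000009394, chromosome 6, 115134902 to 115282626) stood at 68.1, 86.6, 63.1 and 86.5 CPM, against 52.6, 52.4, 50.5 and 50.1 CPM in the other group. Neither overlapped, and the OMP_IGF1R libraries were much closer to each other than the IGF1R_flfl libraries. The log2 fold changes were -0.66 for Syn1 (SE 0.169, edgeR adjusted p = 0.0436) and -0.57 for Syn2 (SE 0.102, edgeR adjusted p = 0.0125), and without IGF1R_flfl 2, which had the highest Syn1 level, they were -0.45 and -0.49, both past the threshold. Over the 8 fits without 1 library, the call of Syn1 held in 3 and that of Syn2 in 8. Syn2 was 44.9 ± 3.73% and 46.1 ± 1.57% of the pair per kilobase, which differed by less than the spread, also without IGF1R_flfl 2 (46.7 ± 1.3%, n = 3).

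Of the SV2 glycoproteins of the vesicle membrane, the test called Sv2b only. Sv2b (ENSMUSG00000053025, chromosome 7, 75114897 to 75309262) stood at 55.8, 64.4, 69.9 and 66.4 CPM in the IGF1R_flfl libraries, against 49.1, 46.6, 46.6 and 44.4 CPM in the OMP_IGF1R libraries, with no overlap (log2 -0.46, SE 0.0697, edgeR adjusted p = 0.00734), and kept its call in all 8 fits without 1 library. Sv2a stood at 48.2, 87.6, 48.7 and 58.3 CPM, against 45.4, 38.5, 46.1 and 46 CPM in the other group. The groups did not overlap. Its fold change was as large with all libraries (-0.46, SE 0.178, edgeR adjusted p = 0.15) and -0.22 without IGF1R_flfl 2. Sv2b made up 37.7 ± 6.41% and 37.1 ± 2.31% of the pair per kilobase, with 28.9% in IGF1R_flfl 2. Without that library the IGF1R_flfl share was 40.7 ± 3.09% (n = 3), above OMP_IGF1R by more than either SD, though the libraries overlapped.

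Of the Rab3 GTPases in the set, which mark vesicles for docking, Rab3a fell, and the sign of Rab3c depended on IGF1R_flfl 2. The other Rab3 GTPase genes were counted with the further release genes below and did not pass the test. Rab3a (ENSMUSG00000031840, chromosome 8, 70754679 to 70758677), the main neuronal form, stood at 95.2, 122, 95.9 and 127 CPM in the IGF1R_flfl libraries, against 72.3, 61.5, 79.5 and 71.8 CPM in the OMP_IGF1R libraries, with no overlap (log2 -0.63, SE 0.114, edgeR adjusted p = 0.013), and held in all 8 fits. Rab3c (ENSMUSG00000021700, chromosome 13, 110054187 to 110280206) stood at 4.13, 34.5, 3.18 and 4.4 CPM, against 7.91, 5.58, 5.75 and 8.37 CPM in the other group. Apart from IGF1R_flfl 2, every OMP_IGF1R library was above every IGF1R_flfl library, a pattern that was not counted over all genes. The log2 fold change was -0.75 (SE 0.714, edgeR adjusted p = 0.58) with that library and 0.83 (SE 0.193, edgeR adjusted p = 0.031) without it. Rab3c was the 1 release gene called higher in the latter fit, where 2.94% of all tested genes were higher. Per kilobase Rab3c was 0.679 ± 0.101% of the pair in the other 3 IGF1R_flfl libraries, 4.98% in IGF1R_flfl 2 and 1.76 ± 0.355% in OMP_IGF1R.

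**Figure D2:**
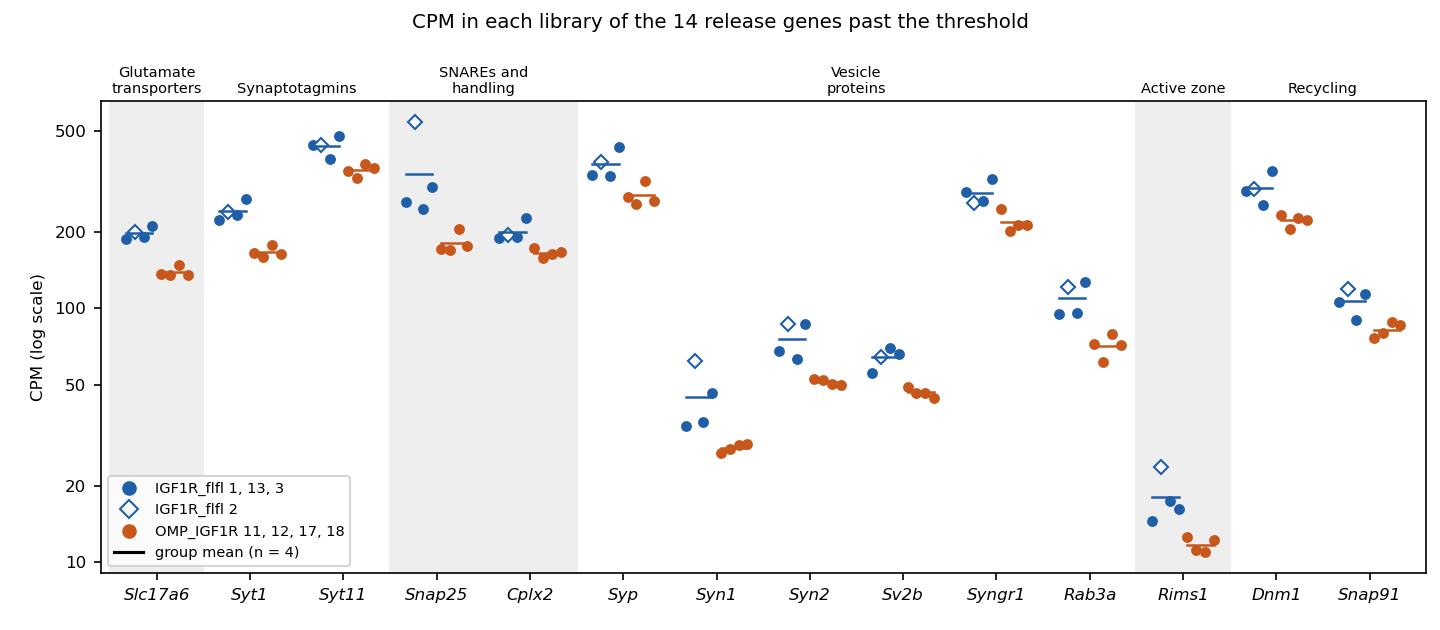
CPM (log axis) in each library of the 14 release genes past the threshold, by role, with lines at the group means (n = 4). In each gene the 4 OMP_IGF1R points lie below the 4 IGF1R_flfl points, and IGF1R_flfl 2 (open diamonds) is far above its group only in Snap25 (540 CPM) and, less so, in Syn1 and Rims1.

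Active zone genes mostly did not pass the test, and the fold changes of Rims2, Unc13a, Bsn and Pclo lay near 0. Rims1 (ENSMUSG00000041670, chromosome 1, 22286251 to 22805994), a scaffold that links Rab3 to calcium channels, fell: it stood at 14.6, 23.9, 17.5 and 16.2 CPM in the IGF1R_flfl libraries, against 12.6, 11.2, 11 and 12.2 CPM in the OMP_IGF1R libraries, with no overlap (log2 -0.62, SE 0.145, edgeR adjusted p = 0.0314, and -0.45 without IGF1R_flfl 2, edgeR adjusted p = 0.0256). The Rims1 call held in 3 of the 8 fits without 1 library. Its paralog Rims2 stood at 28.5, 26.7, 21.8 and 27.4 CPM, against 30.9, 27.1, 20.7 and 25.5 CPM in the other group, fully overlapping (log2 -0.00, SE 0.125, edgeR adjusted p = 0.99). Rims2 thus made up 50.9 ± 6.46% of the pair per kilobase in IGF1R_flfl and 60.9 ± 3.06% in OMP_IGF1R, with overlap between libraries (44.2% to 58% and 57.2% to 63.6%).

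The other active zone genes did not pass the test. Unc13a, which encodes Munc13-1 and opens syntaxin for priming, was at 57.3 ± 5.92 and 58 ± 3.65 CPM (log2 0.02, SE 0.0778). The giant scaffold genes Bsn (bassoon) and Pclo (piccolo) were at 182 ± 28.5 and 169 ± 19.3 CPM (-0.11, SE 0.119) and at 113 ± 13.5 and 117 ± 12.2 CPM (0.05, SE 0.101). Erc2, a further scaffold, was at 13.2 ± 5.93 and 14.3 ± 1.92 CPM, and Ppfia3, liprin-α3, at 10.4 ± 2.66 and 8.19 ± 0.768 CPM. In these 5 the groups overlapped. Without IGF1R_flfl 2 the log2 fold change went from 0.12 to 0.40 for Erc2 and from -0.35 to -0.15 for Ppfia3. Their edgeR adjusted p-values ran from 0.25 for Ppfia3 to 0.92 for Unc13a. Rimbp2, a binding protein of RIM and calcium channels, had 0, 54, 2 and 4 reads in IGF1R_flfl and 4, 0, 0 and 0 reads in OMP_IGF1R, again with IGF1R_flfl 2 apart, and was not tested. A count of 0 there allows up to 0.113 to 0.133 CPM in OMP_IGF1R 12, 17 and 18.

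Of the recycling genes, Dnm1 and Snap91 fell. Dnm1 (ENSMUSG00000026825, chromosome 2, 32308471 to 32353329) encodes dynamin 1, the GTPase that pinches off endocytic vesicles. It stood at 291, 295, 255 and 346 CPM in the IGF1R_flfl libraries, against 234, 205, 227 and 224 CPM in the OMP_IGF1R libraries (log2 -0.41, SE 0.0911, edgeR adjusted p = 0.0255). Snap91 (ENSMUSG00000033419, chromosome 9, 86765936 to 86880654), the clathrin assembly protein AP180, stood at 106, 119, 90.4 and 114 CPM, against 76.3, 79.9, 88 and 85.7 CPM in the other group (log2 -0.38, SE 0.088, edgeR adjusted p = 0.0303). Neither overlapped, but the lowest IGF1R_flfl library of Snap91 lay close to the highest OMP_IGF1R library. Over the 8 fits without 1 library, the call of Dnm1 held in 3 and that of Snap91 in 2. Amph, amphiphysin, was at 39.2 ± 5.1 and 32.4 ± 1.41 CPM (-0.27), Synj1, a phosphatase of phosphoinositides that strips clathrin coats, at 83.1 ± 9.13 and 70.9 ± 3.38 CPM (-0.23), and Sh3gl2, endophilin A1, at 21.4 ± 11.1 and 13.8 ± 1.01 CPM (-0.63, or -0.19 without IGF1R_flfl 2). Without IGF1R_flfl 2 the values were -0.18 for Amph and -0.15 for Synj1. None of these 3 passed the test with all libraries (edgeR adjusted p = 0.097, 0.112 and 0.21).

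**Figure D3:**
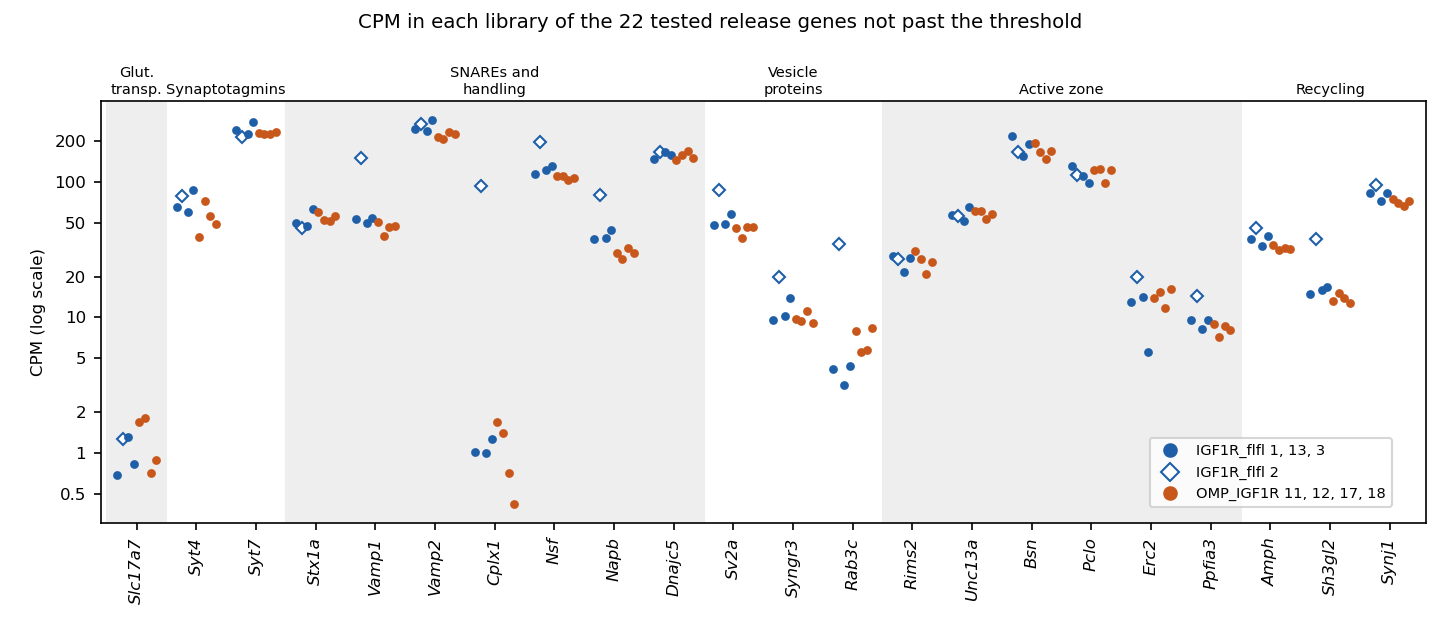
CPM (log axis) in each library of the 22 tested release genes not past the threshold, by role. IGF1R_flfl 2 (open diamonds) is the highest IGF1R_flfl library by a wide margin in Cplx1, Rab3c, Vamp1, Napb and Sh3gl2, while the points of Rims2, Unc13a, Bsn and Pclo overlap between the groups.

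The excess in IGF1R_flfl 2 was uneven over the set. Of the 38 genes, 19 were highest in that library among all 8, and 6 were more than 2-fold above the mean of the other IGF1R_flfl libraries: Rph3a (377-fold), Cplx1 (84.6), Rimbp2 (24.7), Rab3c (8.84), Vamp1 (2.84) and Sh3gl2 (2.4). Snap25 (2.00) and Napb (1.98) followed. Slc17a6 (1.02), Syt1 (0.987), Sv2b (1), Cplx2 (0.958) and Syt7 (0.871) were at the level of their group. Rph3a, Cplx1, Rimbp2 and Rab3c, which led this order, were with Slc17a7 (1.33) the genes of lowest level per kilobase in the other libraries.

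**Figure D4:**
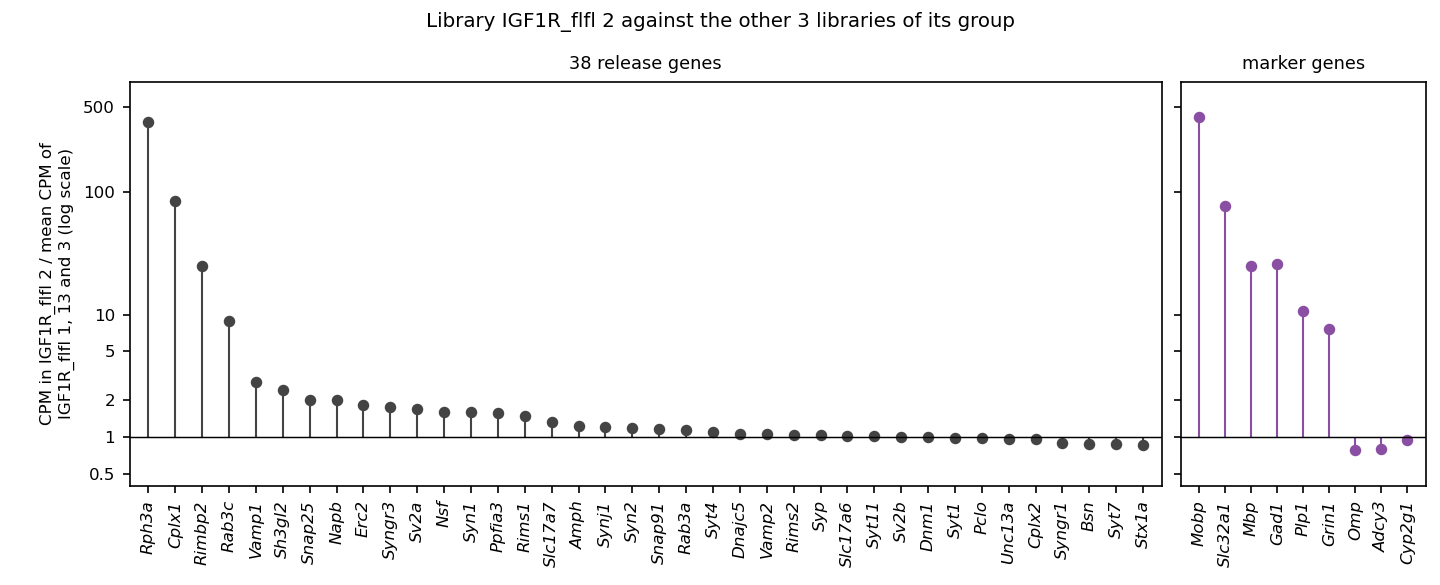
Level in IGF1R_flfl 2 divided by the mean of the other 3 IGF1R_flfl libraries (log axis) for the 38 release genes on the left and for 9 chosen marker genes on the right. Other bulb markers, such as Pcp4l1, which was as high elsewhere, are not shown. Rph3a and Cplx1 are raised, and so are the myelin gene Mobp and the inhibitory neuron gene Slc32a1, while Slc17a6, Syt1 and the mature neuron gene Omp lie near or below 1. The source of the excess was not tested.

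Levels between genes were compared per kilobase of exon. Over all 8 libraries the median of the 38 genes was 9.96 CPM per kilobase. The highest was Syt11, with 83.7 ± 8.73 in IGF1R_flfl without library 2 (n = 3) and 67.2 ± 3.56 in OMP_IGF1R (n = 4). Vamp2 (67 ± 6.96 and 57.8 ± 3.05) and Syp (70.5 ± 11 and 53.4 ± 5.2) followed. Syt11 lay above Vamp2 by more than the SD of either in both groups, while Vamp2 and Syp differed by less than their spread in IGF1R_flfl. Slc17a6 lay at 36.4 ± 2.33 and 25.8 ± 1.18 CPM per kilobase, and Slc17a7 at 0.175 ± 0.0611 and 0.236 ± 0.103. The lowest were Rimbp2 (0.0105 ± 0.01 and 0.00643 ± 0.0129) and Rph3a (0.033 ± 0.0304 and 0.0501 ± 0.0547).

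**Figure D5:**
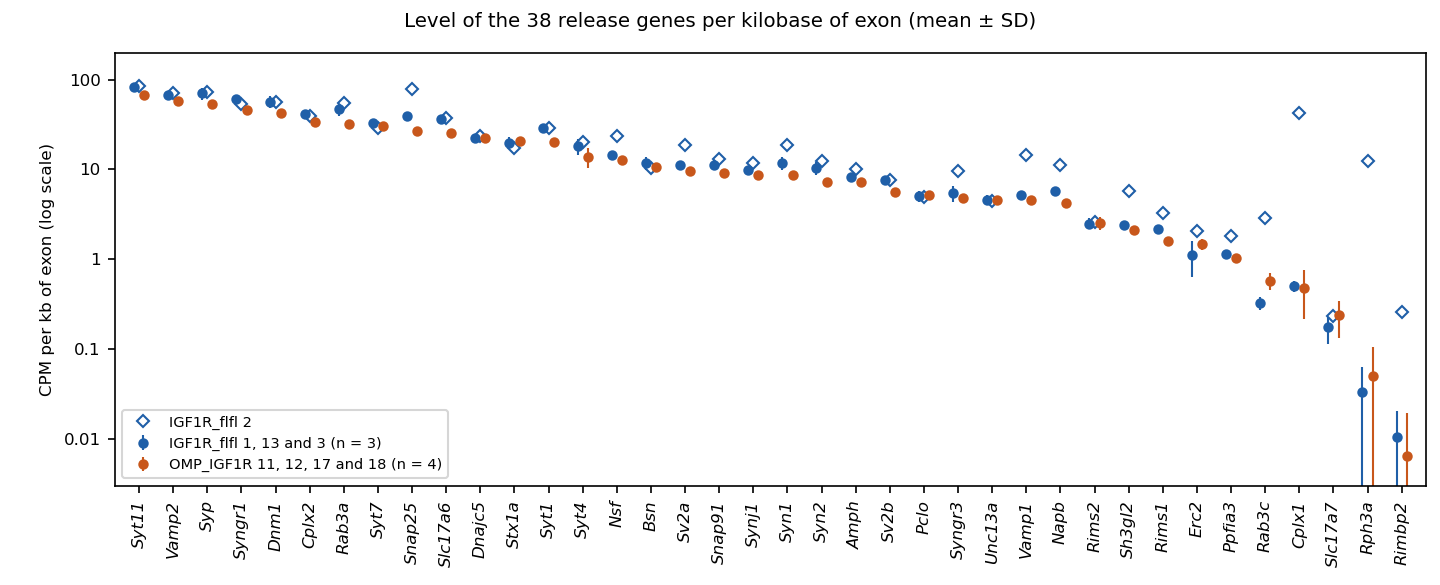
Level of the 38 release genes in CPM per kilobase of exon (log axis), as mean ± SD for IGF1R_flfl 1, 13 and 3 (n = 3) and for OMP_IGF1R (n = 4), with IGF1R_flfl 2 as open diamonds. Levels span from Syt11 (83.7 and 67.2) to Rimbp2 (0.0105 and 0.00643), and the lower bars of Rph3a and Rimbp2 run off the axis where the SD is near or above the mean.

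The wider pathway held fewer calls, a difference that was not tested. Because the 38 genes were listed with earlier results of these data known, nothing is concluded from that difference. Of 105 further tested genes of release, vesicle proteins and recycling, 9 fell and 0 rose by edgeR (8.57%, beside 5.37% of all tested genes called lower), with a median log2 fold change of -0.10, or -0.06 without IGF1R_flfl 2. At an unadjusted p under 0.05 there were 36 (34.3%, beside 23.5% of all tested genes). In 23 of the 105 all OMP_IGF1R libraries lay below all IGF1R_flfl libraries, which is to be read beside 10.3% of all tested genes. Among 48 further release genes 5 fell: Stxbp5l (-0.54, edgeR adjusted p = 0.00347), tomosyn-2, an inhibitor of SNARE assembly, Ppfia2 (-0.27, 0.0126), liprin-α2, Syt9 (-0.31, 0.0403), a fast calcium sensor, Cadps2 (-0.21, 0.0411), a priming factor of dense core vesicles, and Snph (-0.33, 0.0475), syntaphilin, the last named because it completes the count, and called in 1 of the 8 fits without 1 library. Among 24 further vesicle proteins and fillers 0 changed by edgeR, with 11 at an unadjusted p under 0.05, 4 lower by DESeq2 and 2 by limma voom. Of 33 further recycling genes 4 fell: Ston2 (-0.39, edgeR adjusted p = 0.0174), stonin-2, an adaptor for synaptotagmin, Synj2 (-0.45, 0.0286), a synaptojanin, Epn2 (-0.24, 0.031), epsin-2, and Pacsin1 (-0.61, 0.0345), syndapin-1, which binds dynamin. Stxbp5l and Ppfia2 kept their calls in all 8 fits without 1 library. DESeq2 called 18 of the 105 lower and 1 higher, and without IGF1R_flfl 2 edgeR called 7 lower and 1 higher, with 3 of the lower genes among the further release genes.

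Set against the mature neuron markers instead of all genes, the release genes covered a wide range. When libraries were scaled to 19 of those markers (all but Omp, and none of them a release gene), the median of all tested genes moved from -0.01 to 0.59, so values are read relative to 0.59. The release genes had a median of 0.19 on that scale, with 1 lower (Cplx1) and 13 higher, while 78.3% of all tested genes were higher and 0.57% lower. The Cplx1 call rests on IGF1R_flfl 2, at 92.6 CPM, as its other libraries lay under 2 CPM. This scaling was not refitted without that library. Slc17a6 (0.09), Syt1 (0.07), Syn2 (0.04), Rab3a (-0.03) and Rims1 (-0.04) had values near 0, the level of the markers themselves. Rims2 (0.60), Unc13a (0.63), Pclo (0.64), Dnajc5 (0.56), Syt7 (0.55) and Stx1a (0.71) had values near the median of all genes. Which scale describes the neurons better was not tested.

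The spans of 10 release genes, introns included, overlap another gene, and overlap of exons was not checked. Since the strand setting of the counting is not given in the sources used here, whether reads were shared is not known. In 8 of them the overlapping gene averaged at least 100 reads. Of these, Syp overlaps Gm14703, which had 3002 reads on average and fell as well (log2 -0.43, edgeR adjusted p = 0.042), so any shared reads cannot be told apart. The genes overlapping the other called genes Syn1 (Araf, Timp1), Syn2 (Timp4), Rab3a (Mpv17l2) and Dnm1 (Ciz1) did not pass the test.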

How the data were processed

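RNA from 8 libraries of dissected olfactory epithelium was sequenced in pairs from stranded libraries after poly(A) selection, per the labels' protocols. Libraries were grouped by title. The authors deposited whole-number read counts per gene and library, not normalized. The submitters' processing notes name TopHat2 2.0.14, Trim Galore 0.3.7, SAMtools 1.2, DESeq2 and the build GRCm38. How reads were counted, and with which strand setting and annotation, is not given in the sources used here. The authors' deposited comparison table holds a test score, p-values, log2 fold changes with their errors and a mean signal, per the file headers, and was used for description.

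The members and lists were chosen with earlier results of these data known. Counts were tested with edgeR 4.0.16 in R 4.3.3 (quasi-likelihood F-test, TMM, filterByExpr), with Benjamini-Hochberg adjustment over 17381 genes and a threshold of 0.05. The standard error is the absolute log2 fold change divided by the square root of F. CPM uses TMM effective library sizes, and levels per kilobase use merged exons of GENCODE annotation. Depth, 18802471 to 27793375 counts, leaves low genes uncertain. Floors cover counting error only. Of 244 list genes 242 were found, and Vamp7 and Slc18a3 are not analysed here. Extra text was trimmed from 23 gene identifiers, and 25012 of 25913 matched the reference table. The mean chi-square per gene between libraries of one group was 11.9 to 109, so none was counted as a copy.

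Named genes were all members, with each library's value for members past the threshold and for paralog pairs, up to 4 called genes of smallest p per pathway list (and Snph, added after its value was seen to complete a count), Igf1r and Omp, and genes of marker lists. Some of those marker genes, such as Slc32a1 and Tbx21, were not among the leading genes of their list by level. Syn3 was added as a further paralog of Syn1 and Syn2, after its value was seen. Alternatives were DESeq2 size factors, upper-quartile factors, scaling to mature neuron markers, a looser and a stricter low-count filter, DESeq2 1.42.0, voom with sample weights in limma 3.58.1, leaving out each library, and leaving out IGF1R_flfl 2 and OMP_IGF1R 17 together. Tested on simulated data for this comparison, with 200 of 17381 genes changed, edgeR recovered 43% of log2 changes of 0.5 and 74% of changes of 1, with 5.65% of calls false. DESeq2 recovered 60% and 80% with 24.3% false, and voom 44% and 74% with 7.09% false. The simulated counts held no library set apart as IGF1R_flfl 2 was. They also held fewer changed genes than were called in the real counts (933 lower and 492 higher). These rates may therefore not hold for the real counts.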

Additional observations from a re-analysis of the deposited data

Results flagged for a closer look

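In 12 of 75 groups of 4 libraries with at least 10 reads, 1 library stood apart from the other 3 by more than Dixon's 95% critical value, where chance flags about 1 group in 20. The library was IGF1R_flfl 2 in 7 of them, each on the high side. Rph3a stood there at 57.7 CPM (others 0 to 0.278), Cplx1 at 92.6 (0.999 to 1.27), Vamp1 at 148 (49.5 to 54.2) and Napb at 79.6 (37.8 to 43.8). Rab3c stood there at 34.5 CPM (3.18 to 4.4), Sh3gl2 at 38 (14.8 to 16.6) and Rimbp2 at 2.06 (0 to 0.159). Cplx2 was high in IGF1R_flfl 3, at 226 CPM (190 to 194). In OMP_IGF1R 17, Slc17a6 was high at 149 CPM (135 to 137) and Pclo low at 98.4 CPM (121 to 124). Sv2a was low in OMP_IGF1R 12, at 38.5 CPM (45.4 to 46.1), and Rph3a, at 12 reads, was high in OMP_IGF1R 11, at 0.612 CPM (0.0885 to 0.115).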

How the results depend on the processing

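Calls near the threshold depended on single libraries, while the direction of the called genes held in every fit except the scaling to mature neuron markers. Over the 8 fits that each left out 1 library, the number of release genes called lower ran from 5 to 13, the number higher from 0 to 1, and their median log2 fold change from -0.45 to -0.20. Further pathway genes called lower ran from 3 to 8 over those fits. Further pathway genes called higher ran from 0 to 1 over those fits. The same fits called 2.17% to 5.52% of all tested genes lower. Leaving out OMP_IGF1R 12 or 18 gave 5 release genes lower, OMP_IGF1R 11 gave 6, IGF1R_flfl 3 gave 7, IGF1R_flfl 1 or OMP_IGF1R 17 gave 8, and IGF1R_flfl 2 gave 11 and the 1 higher. Slc17a6, Syt1, Syn2, Sv2b and Rab3a kept their call in all 8. Without both IGF1R_flfl 2 and OMP_IGF1R 17, 9 release genes were lower, 1 was higher and the median was -0.23, with 4 further pathway genes lower (3.81% of 105, beside 4.84% of all tested genes). Upper-quartile factors gave 5 further pathway genes lower and 1 higher, DESeq2 18 lower and 1 higher, and DESeq2 size factors and the filter of 1 CPM in 4 libraries 1 higher each. Scaled to mature neuron markers, 1 release gene was lower and 13 higher, 1 further pathway gene was lower and 77 higher, and the release genes' median was 0.19, where all genes had 0.59. Of the genes named in the text, the log2 fold changes that became positive there were Slc17a6 0.095, Syt1 0.070, Syt4 0.18, Syt7 0.55, Syt11 0.28, Vamp2 0.37, Cplx2 0.33, Nsf 0.19, Dnajc5 0.56, Syp 0.19, Syn2 0.037, Sv2a 0.11, Sv2b 0.14, Syngr1 0.23, Syngr3 0.14, Rims2 0.60, Bsn 0.50, Ppfia3 0.23, Dnm1 0.19, Amph 0.32, Synj1 0.36, Snap91 0.22, Stxbp5l 0.057, Ppfia2 0.33, Syt9 0.29, Cadps2 0.39, Snph 0.28, Ston2 0.21, Synj2 0.16 and Epn2 0.36. Signs also changed without both libraries for Cplx1 0.080, Rab3c 0.91 and Rims2 0.11, with upper-quartile factors for Dnajc5 0.0035 and Rims2 0.029, by limma voom for Rab3c 0.41 and Rims2 0.019, with DESeq2 size factors for Rims2 0.0046, with no low-count filter for Rims2 0.0025, and by DESeq2 for Rims2 0.0047. Over the fits without 1 library, values that changed sign ran from -0.10 to 0.017 for Syt7, -0.062 to 0.0038 for Dnajc5, -1.05 to 0.83 for Rab3c, -0.095 to 0.10 for Rims2, -0.023 to 0.093 for Unc13a, -0.0063 to 0.13 for Pclo and -0.13 to 0.40 for Erc2. Of these, Rab3c alone passed the threshold, without IGF1R_flfl 2. The cause of these changes was not tested. No paired analysis was possible because the groups share no replicate number.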
